A study of Mus musculus with 4 samples.

Results

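The chemokine receptor gene *Ccr2* and the genes of 4 chemokines grouped here as its ligands, *Ccl2*, *Ccl7*, *Ccl8* and *Ccl12*, were followed in ischemic mouse hindlimb muscle. These 5 genes were chosen by symbol from the 84 target genes of a PCR array of inflammatory cytokines and receptors, and all 5 gave a signal in every sample. Samples came from FVB mice, which the study's methods give as FVB/NJ of both sexes, 10 to 12 weeks old. One group received E-sel/AAV2/2, an adeno-associated virus carrying the mouse E-selectin gene. The other received LacZ/AAV2/2, the same vector with a bacterial reporter gene. Each mouse was given 1e11 viral genomes by intramuscular injection, and what promoter drove the transgenes was not given in the sources used here. Ischemia was induced in both groups at the femoral artery, by ligation according to the series text and by cautery and division of artery and vein together according to the methods. Both groups also received L-NAME, a nitric oxide synthase inhibitor, at 40 mg/kg. Adductor and gastrocnemius muscle was taken at day 21, and no non-ischemic or untreated muscle is analysed here.

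There were 4 arrays, 2 per group, called E-selectin arrays and LacZ arrays below. By the series text, RNA of 3 mice was pooled per group and the array was then run in duplicate. The methods also describe duplicate runs but allow for more mice per group and do not mention pooling. The median Ct of the tested genes differed by 2.19 between the LacZ arrays. Following the series text, both arrays of a group were treated as runs of a single pool, in which case the errors and p-values below carry assay error and no variation between mice. The array measured the threshold cycle (Ct), the number of PCR cycles a well needs to reach a given fluorescence. The earlier the cycle, the more transcript was present, and 1 cycle is a 2-fold difference where amplification is complete. LacZ replicate 1 stood apart from the other arrays: 46 of its 84 target genes had a Ct below 35, against 64 to 65 on the others, and 6 of its target wells gave no Ct, against 1 to 2. The reverse transcription control wells were latest on LacZ replicate 2, with a mean Ct of 24.7 against 23.1 to 23.6 elsewhere. The 5 reference genes did not move together between the groups, a point that recurs below. The target genes of this array hold no structural gene of muscle, so the labelled tissue could not be checked against its markers.

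CCR2 is a receptor on inflammatory monocytes, which follow its ligands out of the bone marrow and into injured tissue, where they become macrophages. In ischemic muscle these cells are known for clearing dead fibers and for taking part in the growth of collateral arteries. CCL2 (also called MCP-1), CCL7 (MCP-3) and the mouse protein CCL12 (MCP-5) are established CCR2 ligands. CCL8 (MCP-2) belongs to the same group by sequence, although the mouse protein is best known for acting through CCR8.

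In the RefSeq annotation of GRCm38.p6, *Ccl2*, *Ccl7*, *Ccl12* and *Ccl8* lie in 1 chemokine cluster on chromosome 11. *Ccl2* is followed by *Ccl7*, and *Ccl12* is the direct neighbor of *Ccl8*. *Ccr2* lies on chromosome 9, next to *Ccr3*. Of the members, *Ccl8*, *Ccl12* and *Ccr2* had a promoter entry in the RefSeq table. The 120 bases directly before the annotated start are shown for *Ccl12* and *Ccl8*, because these neighbors were at opposite ends of the abundance order in the LacZ pool. The *Ccl12* stretch is chr11:82101725-82101844 and the *Ccl8* stretch is chr11:82115065-82115184, both on the plus strand of GRCm38.p6 and written 5′ to 3′. Capitals mark the letters TATAAA, the core of a TATA box, at which the basal transcription machinery assembles.
*Ccl12*: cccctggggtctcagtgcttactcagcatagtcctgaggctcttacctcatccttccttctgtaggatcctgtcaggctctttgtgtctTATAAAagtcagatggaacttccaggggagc
*Ccl8*: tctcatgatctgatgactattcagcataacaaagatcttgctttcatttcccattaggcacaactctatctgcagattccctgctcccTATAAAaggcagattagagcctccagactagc
The match began 31 bases before the start in *Ccl12* and 32 bases before it in *Ccl8*. Within the 250 bases before the start, TATAAA on either strand was found for these 2 of the 3 members with an entry and not for *Ccr2*, and in 12.4% of all 32851 promoter entries. No match was found in these 3 windows, on either strand, for TGANTCA (AP-1, 6.75% of all entries) or TTCNNNGAA (STAT GAS, 7.02%).

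Levels are given as -ΔCt, the Ct averaged over *Gapdh*, *Actb*, *Hsp90ab1*, *B2m* and *Gusb* on an array minus the Ct of the gene, which is a log2 scale. Each assay reads 1 amplicon per transcript, so transcript length does not enter, but an order between genes assumes that the assays amplify equally well. *Ccl8* was the most abundant of the 5 transcripts on every array. Its Ct was 27.84 and 26.23 on E-selectin replicates 1 and 2, and 29.26 and 26.09 on LacZ replicates 1 and 2. Its mean level over the 4 arrays was -2.99 ± 0.92 (SD, n = 4 arrays), and it ranked between 6 and 10 among the 77 target genes measured on every array, the ones that entered the tests. *Ccr2* came next at -5.28 ± 1.18, followed by *Ccl2* at -5.83 ± 0.89, *Ccl7* at -6.09 ± 1.01 and *Ccl12* at -6.48 ± 1.18 (SD, n = 4 each). These other 4 genes ranked between 9 and 34 on single arrays, in the upper part of the panel in most cases. All Ct values of the 5 genes lay between 26.09 and 33.47, ahead of the late cycles above 35 where few template molecules remain.

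**Figure D1:**
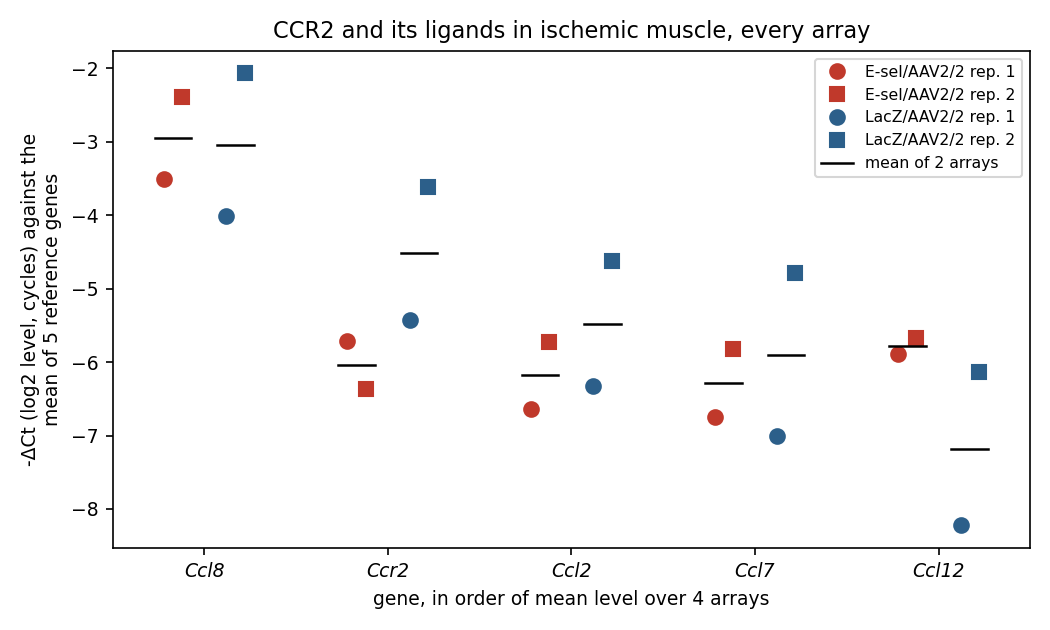
Level (-ΔCt, log2 scale) of the 5 genes on each of the 4 arrays, ordered by mean level, with a line at the mean of the 2 arrays of a group. *Ccl8* sits highest in both groups, both E-selectin points of *Ccr2* lie below both LacZ points, and both E-selectin points of *Ccl12* lie above both LacZ points.

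Differences between 2 genes of the same array need no reference gene, so the order was examined within arrays. *Ccl8* exceeded *Ccr2* by 2.21 and 3.98 on the E-selectin arrays and by 1.41 and 1.55 on the LacZ arrays (log2). This gap, 2.29 ± 1.18 on average (SD, n = 4 arrays), was the only one between neighbors in the order that held on all 4 arrays and exceeded its own spread. The gap from *Ccr2* down to *Ccl2* was 0.55 ± 0.79 and held on 3 of 4 arrays. *Ccl2* stood above *Ccl7* by 0.26 ± 0.28, on all 4 arrays but by less than the spread, and *Ccl7* above *Ccl12* by 0.39 ± 1.08, on 2 of 4 arrays. Over all 4 arrays, the genes from *Ccr2* down to *Ccl12* thus did not separate from each other as neighbors beyond the spread, which here includes the difference between the groups. Within the LacZ pool, *Ccr2* exceeded *Ccl2* by 0.96 ± 0.07 and *Ccl7* exceeded *Ccl12* by 1.28 ± 0.10 (SD, n = 2 arrays), both beyond the spread. Within the E-selectin pool the same gaps were 0.14 ± 1.10 and -0.51 ± 0.51. The gap from *Ccl2* down to *Ccl7* was 0.42 ± 0.37 in the LacZ pool and 0.105 ± 0.02 in the E-selectin pool. Each was also beyond its spread.

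The makeup of the ligand pool was also computed within each array, as the share of each ligand in the summed 2^-Ct of the 4. *Ccl8* made up 70.8% and 77.3% on the E-selectin arrays and 72.5% and 72.4% on the LacZ arrays. It was the bulk of the signal of these 4 genes in both groups, although the mouse protein is best known for acting through CCR8. *Ccl2*, the ligand most often studied, held 8.09% and 7.63% with E-selectin and 14.5% and 12.3% with LacZ. *Ccl7* held 7.45% and 7.17%, and 9.06% and 11.0%, respectively. *Ccl12* went the other way, with 13.6% and 7.95% on the E-selectin arrays and 3.92% and 4.31% on the LacZ arrays. The shares of *Ccl2*, *Ccl7* and *Ccl12* did not overlap between the groups and those of *Ccl8* did. Such separation within arrays was frequent. Of the 76 other genes, 36.8% set against *Ccl2*, 23.7% against *Ccl7* and 19.7% against *Ccl8* lay higher on both E-selectin arrays. These percentages are for differences between pairs of genes and for the direction of *Ccl12*. No background is given for a lower share, as of *Ccl2* and *Ccl7*. The non-overlap of the shares is therefore a description only. No permutation test was run on any value here, since the smallest two-sided p-value that exact permutation of 2 arrays against 2 allows is 0.333. Shares of 1 total are tied to each other and rest on equal amplification of the 4 assays.

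**Figure D2:**
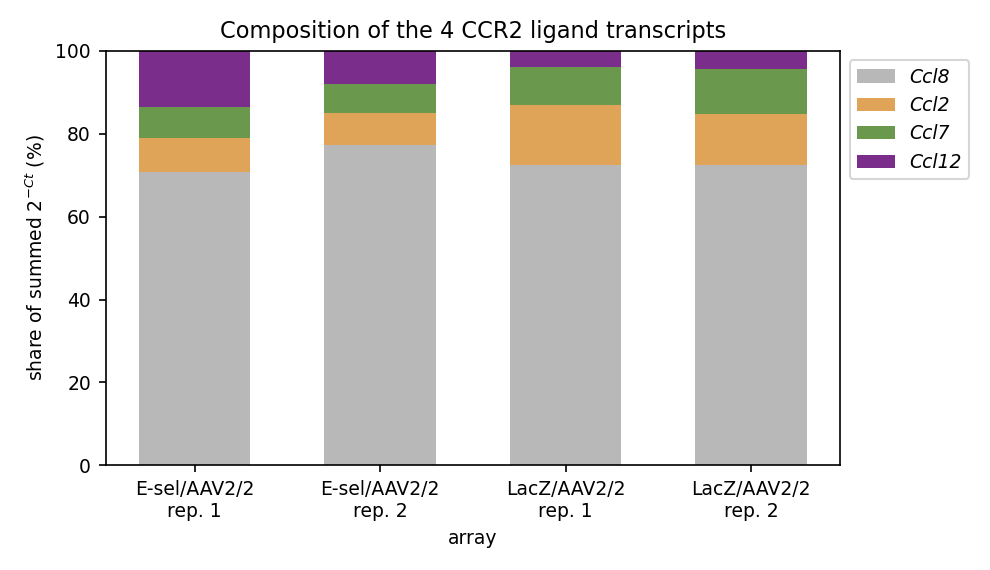
Share of each ligand (%) in the summed 2^-Ct of *Ccl8*, *Ccl2*, *Ccl7* and *Ccl12*, 1 bar per array. *Ccl8* fills between 70.8% and 77.3% of every bar, and the *Ccl12* part is 13.6% and 7.95% with E-selectin against 3.92% and 4.31% with LacZ.

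The comparison of E-selectin with LacZ asked which cytokine and receptor transcripts differed between muscle given either vector. Of the 5 genes, 0 passed an adjusted p-value of 0.05 in limma, and 0 had an unadjusted p-value under 0.05. Over the panel, 5.19% of the 77 genes were called and 13% had an unadjusted p-value under 0.05. The receptor gene had the lowest change of the 5 and *Ccl12* the highest, with the other 3 ligands between them.

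The Ct of *Ccr2* was 30.05 and 30.21 on the E-selectin arrays, and 30.67 and 27.64 on the LacZ arrays. After normalization its level was -6.04 ± 0.46 with E-selectin and -4.52 ± 1.28 with LacZ (SD, n = 2 arrays each). Both E-selectin arrays lay below both LacZ arrays, by a narrow margin for the pair numbered 1 (-0.29) and a wide one for the pair numbered 2 (-2.75). This separation depended on the reference. It also held with *Actb* or *B2m* alone, but the groups overlapped with *Gapdh*, *Gusb* or *Hsp90ab1* alone and in the Ct before normalization. The log2 change was -1.52 (SE 1.01, 95% interval -3.70 to 0.66, limma adjusted p = 0.507), which ranked 69 of 77 from the top. The value was -2.97 with *B2m* alone as reference and -0.41 with *Gapdh* alone, and it was -0.62 without LacZ replicate 2. A change of reference shifts every gene by the same amount: the median of the 77 genes, -0.19 with 5 reference genes, was 0.92 with *Gapdh* alone, and *Ccr2* stood at -1.33 relative to that median under every reference tried. In bulk muscle, fewer cells that carry a transcript and less of it per cell cannot be told apart.

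The Ct of *Ccl12* was 30.22 and 29.51 on the E-selectin arrays, and 33.47 and 30.16 on the LacZ arrays. Its level was -5.78 ± 0.15 with E-selectin and -7.18 ± 1.48 with LacZ (SD, n = 2 each), and the groups did not overlap. They did overlap with *Actb* or *B2m* alone as reference and in the Ct before normalization, but not with *Gapdh*, *Gusb* or *Hsp90ab1* alone. The log2 change was 1.40 (SE 1.02, 95% interval -0.80 to 3.61, limma adjusted p = 0.507), ranking 15 of 77. It was 2.34 for the pair numbered 1 and 0.47 for the pair numbered 2. The size leaned on LacZ replicate 1, without which the change was 0.36, and on the reference, since it was -0.04 with *B2m* alone. Relative to the median of the panel it was 1.60 under every reference tried and 0.76 without LacZ replicate 1. *B2m* itself was 1.44 higher with E-selectin against the mean of the 5 reference genes, and *Gapdh* differed by -1.11.

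*Ccl2* had a Ct of 30.97 and 29.57 with E-selectin and 31.58 and 28.65 with LacZ, and the normalized values of the groups overlapped. Its log2 change was -0.70 (SE 1.01, 95% interval -2.88 to 1.48, limma adjusted p = 0.716). *Ccl7*, its neighbor in the genome, had a Ct of 31.09 and 29.66 against 32.26 and 28.81, and a log2 change of -0.39 (SE 1.05, 95% interval -2.65 to 1.87, limma adjusted p = 0.847). *Ccl8* had a log2 change of 0.09 (SE 1.04, 95% interval -2.14 to 2.32, limma adjusted p = 0.955), and its groups overlapped as well. All 3 intervals include a 2-fold change in either direction, so neither a difference of that size nor its absence was shown. The sign of the change depended on 1 array or on the reference in each: without LacZ replicate 2 it was 0.15 for *Ccl2* and 0.73 for *Ccl7*, without E-selectin replicate 1 it was 0.08 for *Ccl7*, and for *Ccl8* it was -0.47 without E-selectin replicate 2 and -0.88 without LacZ replicate 1.

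With the mean of 5 reference genes, 1 of the 5 genes (*Ccl12*) lay higher on both E-selectin arrays than on both LacZ arrays, where 22.1% of the panel did. Another 1 (*Ccr2*) lay lower, where 26% did. These shares are near the background. The median log2 change of the 4 ligands was -0.15, against -0.19 for all 77 genes.

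**Figure D3:**
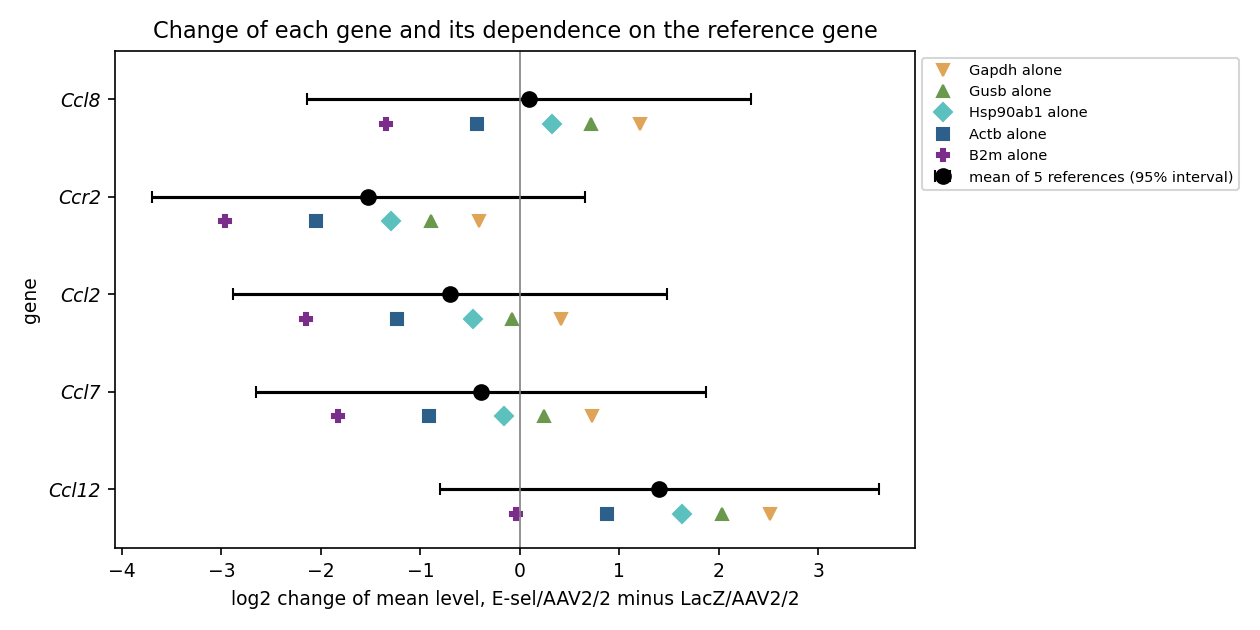
Log2 change of each gene, E-selectin minus LacZ, with the mean of 5 reference genes and its 95% interval (black) and with each reference gene alone (colored). All 5 intervals cross zero, and each reference gene moves all 5 genes by the same amount, for *Ccr2* from -2.97 with *B2m* to -0.41 with *Gapdh*.

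Because the reference genes disagreed, the members were also set against each other on the same array. *Ccl12* minus *Ccr2* was -0.17 and 0.70 on the E-selectin arrays and -2.80 and -2.52 on the LacZ arrays (log2 level difference). Such a separation of the groups, with both E-selectin arrays higher, was seen for 55.3% of the 76 other genes when set against *Ccr2*. Both transcripts read within 1 cycle of each other in the E-selectin pool, whereas *Ccr2* clearly exceeded *Ccl12* in the LacZ pool. With *Ccr2* as the reference for the whole panel, the change of *Ccl12* was 2.93 (SE 0.91, 95% interval 0.94 to 4.91, limma adjusted p = 0.0398 over 76 genes). In that fit 19.7% of the 76 genes were called, all of them higher, and 89.5% had a change above zero, and every one of these values contains the *Ccr2* well. The call was lost when late Ct values were set to 35 (adjusted p = 0.0722) and in each of the 4 fits that left out 1 array, where the change ran from 2.49 without E-selectin replicate 2 (adjusted p = 0.319) to 3.36 without E-selectin replicate 1 (adjusted p = 0.131). Without LacZ replicate 1 it was 2.79 (adjusted p = 0.101), and without LacZ replicate 2 it was 3.07 (adjusted p = 0.147). The other ligands were not called relative to *Ccr2*: the change was 1.62 for *Ccl8* (adjusted p = 0.265), 1.14 for *Ccl7* (adjusted p = 0.443) and 0.82 for *Ccl2* (adjusted p = 0.575) in limma.

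The ligands were compared in the same way. *Ccl12* minus *Ccl2* was 0.75 and 0.06 on the E-selectin arrays and -1.89 and -1.51 on the LacZ arrays. *Ccl12* minus *Ccl7* was 0.87 and 0.15 against -1.21 and -1.35. *Ccl12* was thus at or above *Ccl2* and *Ccl7* on both E-selectin arrays and below both genes on both LacZ arrays. A separation in this direction was seen for 36.8% of the 76 other genes set against *Ccl2*, 23.7% set against *Ccl7* and 19.7% set against *Ccl8*. Against *Ccl2*, the change of *Ccl12* was 2.11 (SE 0.80, 95% interval 0.13 to 4.08, limma adjusted p = 0.278 over 76 genes), which did not pass the threshold. In that fit 5.26% of the 76 genes passed and 14.5% had an unadjusted p-value under 0.05. Against *Ccl8* it was 1.31 (SE 0.96, 95% interval -0.97 to 3.59, limma adjusted p = 0.609), where 3.95% of the genes were called. *Ccl2*, *Ccl7* and *Ccl8* kept closer to each other: set against *Ccl2*, the change was 0.32 (95% interval -1.61 to 2.24) for *Ccl7* and 0.80 (95% interval -1.11 to 2.70) for *Ccl8*. Each pairing shares its reference well among all its values, and the comparisons with *Ccl2* and *Ccl8* were chosen after seeing the data.

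**Figure D4:**
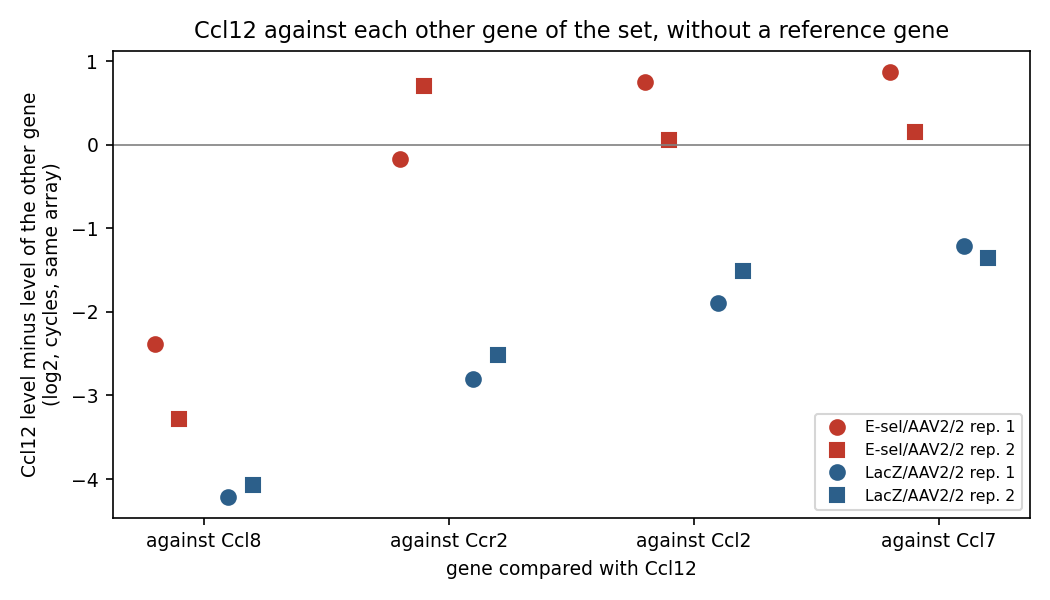
Level of *Ccl12* minus the level of *Ccl8*, *Ccr2*, *Ccl2* or *Ccl7* on the same array (log2), 1 point per array. In all 4 comparisons both E-selectin points lie above both LacZ points, for example -0.17 and 0.70 against -2.80 and -2.52 relative to *Ccr2*.

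Across the 4 arrays, *Ccl2*, *Ccl7* and *Ccl8* also had the most similar profiles of the 5. After centering each gene on its mean, the root mean square distance was 0.24 (log2) between *Ccl2* and *Ccl7*, 0.27 between *Ccl7* and *Ccl8* and 0.41 between *Ccl2* and *Ccl8*. It was 0.73 to 1.09 between *Ccl12* and the other ligands and 1.50 between *Ccl12* and *Ccr2*. This distance does not depend on the reference genes. Among the 72 other tested genes, those nearest to *Ccr2* were *Ccr3* at 0.24 and *Ccl11* at 0.26, against a median distance of 1.08. *Ccr3* encodes a chemokine receptor and is an annotated neighbor of *Ccr2*, and *Ccl11* encodes an eosinophil attractant. Nearest to the mean profile of the 4 ligands were *Ccl17* at 0.06, *Il13* at 0.29 and *Mif* at 0.38, against a median of 1.04. The profile of *Il13* rests on late Ct values, from 35.71 to 38.89. All of these distances describe 4 arrays of 2 pools and carry no test.

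The other monocyte and macrophage chemokines, receptors and growth factors of the panel were taken as a list of 15 genes. This list also held the eosinophil attractants *Ccl11* and *Ccl24* and the receptor gene *Ccr3*. Of the 15 genes, *Ccl1* and *Ccr8* were not measured on every array, and none of the remaining 13 was called in either direction. With 5 reference genes, the log2 change was below zero in 11 of 13, with a median of -1.28 against -0.19 for the panel. Both E-selectin arrays lay below both LacZ arrays in 7 of 13, where 26% of the panel did. *Ccl11*, *Ccl24* and *Ccr3* were among the 11, and *Ccl11* was among the 7, so these counts are not of monocyte and macrophage genes alone. The lowest changes were those of *Ccl3*, a ligand of CCR1, at -2.51 (limma adjusted p = 0.239), and *Cx3cl1*, which attracts monocytes through CX3CR1, at -2.12 (limma adjusted p = 0.366). The highest were those of *Ccl5*, which draws T lymphocytes and monocytes, at 2.04 (limma adjusted p = 0.366), and *Csf2*, the growth factor GM-CSF, at 1.13 (limma adjusted p = 0.799). The value of *Csf2* rested on a single array, with a Ct of 29.29 on E-selectin replicate 1 against 38.90 on replicate 2 and 35.94 and 35.60 with LacZ. *Csf1*, the main growth factor of macrophages, had a log2 change of -1.96 (limma adjusted p = 0.366). The receptor genes *Ccr1* and *Ccr3* had log2 changes of -0.88 and -1.61, on the same side of zero as *Ccr2*, and neither was called (limma adjusted p = 0.681 and 0.507).

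Of 6 cytokines listed as inducers of these chemokines, *Il1a*, *Il1b*, *Tnf*, *Ifng*, *Il4* and *Il13*, none was called. With 5 reference genes, all 6 had a log2 change above zero, with a median of 0.74. The range was from 0.17 for *Il1b* to 1.74 for *Il1a* (limma adjusted p = 0.899 and 0.396). Above zero were 46.8% of the panel. Both counts depend on the reference, since *B2m* alone moved the median of the 77 genes from -0.19 to -1.635. In 1 of 6 both E-selectin arrays lay above both LacZ arrays, where 22.1% of the panel did. On LacZ replicate 1 all 6 had a Ct above 35, from 35.41 for *Il4* to 38.89 for *Il13*. *Ifng* and *Il13* had a Ct above 35 on the other arrays as well. Those values lie in the late cycles where few template molecules remain.

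Genes of lymphoid tissue differed between the groups. Of 9 such genes, 4 were called higher with E-selectin. These 4 were also the only genes called in the panel, 5.19% of it. In 8 of 9 both E-selectin arrays lay above both LacZ arrays, where 22.1% of the panel did. The list was drawn up with earlier results of these data known, so these counts are a description only. All 9 had a change above zero with 5 reference genes. *Cd40lg*, also among the 8, had a Ct above 35 on every array. Its change was -0.55 with Ct values above 35 set to 35. The summed level of the 9 genes was -0.86 and -0.63 on the E-selectin arrays and -4.67 and -4.19 on the LacZ arrays (log2). *Cxcl13*, which draws B cells into follicles, rose by 4.87 (limma adjusted p = 0.00877). *Ccl19*, which draws T cells and dendritic cells, rose by 4.80, and *Ccr6*, a receptor on B cells and some T cells, by 4.84 (limma adjusted p = 0.00624 for both). The fourth called gene was *Cxcr5*, the follicular homing receptor of B cells. Its Ct was 30.04 and 31.19 with E-selectin and 38.23 and 34.99 with LacZ, and the LacZ replicate 1 value is later than the genomic DNA control well of that array at 36.86. Its change of 5.45 (limma adjusted p = 0.00624) was 3.83 with Ct values above 35 set to 35 (limma adjusted p = 6.79e-04). The 3 macrophage genes *Spp1*, *Il1rn* and *Il10ra* had changes of -0.40, -1.17 and -1.35, with a summed level of -4.44 and -3.87 against -3.42 and -3.91. *Pf4* of platelets had a change of -0.20 and *Cxcr2* of neutrophils one of 1.90, and none of these 5 genes was called (limma adjusted p from 0.396 to 0.899). The part of any of these cell types in the values of *Ccl12* and *Ccr2* was not tested.

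**Figure D5:**
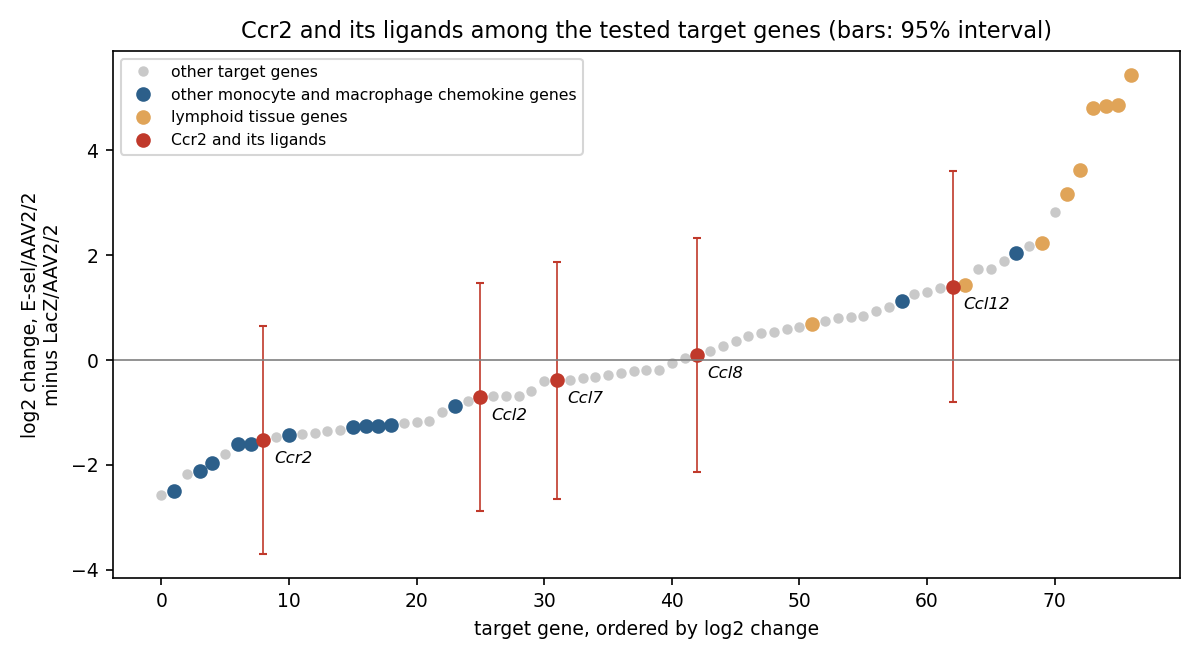
Log2 change of the 77 tested target genes, E-selectin minus LacZ, in rising order, with *Ccr2* and its ligands (red, bars are 95% intervals), other monocyte and macrophage chemokine genes (blue) and lymphoid tissue genes (orange). The blue genes include the eosinophil attractants *Ccl11* and *Ccl24* and the receptor gene *Ccr3*. *Ccr2* at -1.52 lies among the blue genes, of which 11 of 13 are below zero, and *Ccl12* at 1.40 lies to the right, while all 9 orange genes are above zero. Changes are with the mean of 5 reference genes, and the orange gene *Cd40lg* had a Ct above 35 on every array.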

How the data were processed

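Total RNA was reverse transcribed and assayed by SYBR Green qPCR on Qiagen RT2 Profiler arrays. The authors deposited Ct values per well without normalization, in which wells without a Ct are marked null. A second table holds the authors' fold ratios, of which only the gene symbols were used, and its ratios are not reported. All 89 gene symbols matched the GRCm38.p6 annotation. Baseline and threshold settings were not given in the sources used here.

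Following the study's methods, ΔCt was taken to the mean of 5 reference genes, and the groups were compared on -ΔCt in limma 3.58.1 (lmFit and eBayes under R 4.3.3, two-sided, without covariates). Adjustment was that of Benjamini and Hochberg across all 77 targets that gave a Ct on every array, and 0.05 was the threshold. Fits relative to *Ccr2*, *Ccl2* or *Ccl8* used that gene as the only reference. The limma script was tested on simulated data. Named genes were the members, fixed lists and, for likeness, the 3 nearest profiles, of which 1 is not reported here; from the lists, values were given for at most the 2 highest and 2 lowest changes and for called genes, along with receptors and growth factors named by role after their values were seen. The members and lists were chosen with earlier results of these data known. The number of arrays limits the precision, and figures were drawn with matplotlib 3.10.9.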

Additional observations from a re-analysis of the deposited data

How the results depend on the processing

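None of the 5 genes was called in any of the 22 other limma fits of the panel (0 in each); in 3 of these fits, with *B2m* alone and without either LacZ array, 1 of the 5 had an unadjusted p-value under 0.05. Another reference shifts all genes alike, so the median of the panel moved from -0.19 to -1.635 with *B2m* alone and to 0.92 with *Gapdh* alone, and the ligand median stood 0.045 above it under every reference tried. With *B2m* as the only reference, *Ccl12* turned to -0.04 and *Ccl8* to -1.35, and the ligand median moved to -1.59. With *Gapdh* as the only reference, *Ccl2* turned to 0.41 and *Ccl7* to 0.73 (log2), and the ligand median moved to 0.97. *Ccl7* was 0.24 with *Gusb* alone and 0.16 with no reference. *Ccl8* was -0.44 with *Actb* alone, -0.19 without *Gapdh*, -0.065 without *Gusb* and -0.11 as a ratio of mean 2^-ΔCt. When each array was left out in turn, *Ccl2* ran from -1.56 to 0.15, *Ccl7* from -1.50 to 0.73, *Ccl8* from -0.88 to 1.07 and the ligand median from -1.19 to 0.90, the last without LacZ replicates 1 and 2, respectively. Relative to *Ccr2*, *Ccl12* kept its size of 2.93 with late Ct values set to 35 but not its call (limma adjusted p = 0.0722), and ran from 2.49 to 3.36 without 1 array, with no call. Where an array was left out, the lone array of a group was assumed to vary like the other group, and fewer arrays leave less power. No other cause was tested. The replicate numbers are not stated to mark a batch, and the deviations of arrays with the same number correlated at 0.33 across genes, over only 2 pairs. With the replicate block, *Ccl12* relative to *Ccr2* was also called, at 2.93 (limma adjusted p = 0.0313), *Ccl12* and *Ccr2* against the 5 reference genes stood at 1.40 and -1.52, and no call among the 5 genes changed. The counts of called panel genes were 4 in the main fit, 5 with the block, 7 with *Gapdh* or *Gusb* alone and 0 with *B2m* alone or without either E-selectin array. The number of arrays limits the precision of all 5 genes.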
